A study of Oryza sativa with 5 samples.

Results

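The primary wall of a root cell is a network of cellulose, xyloglucan and pectin, and this account follows the root transcripts of rice (Oryza sativa) annotated as making, cutting or modifying those polymers. They were chosen by words in the function text of the deposited tables, namely cellulose synthase, xyloglucan, pectin, pectinesterase, polygalacturonase or COBRA without expansin. The rule took 196 transcripts of 170 loci, of 38355 transcripts of 31874 loci listed in all 3 tables, and used no measured value. A further 27 transcripts with these words were listed in only 1 or 2 tables and were left out.

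Cellulose is spun at the plasma membrane by rosettes of cellulose synthase subunits, and the related cellulose synthase-like enzymes build hemicelluloses such as mannan and mixed-linkage glucan. Xyloglucan is assembled in the Golgi and, once in the wall, is cut and rejoined by xyloglucan endotransglucosylase/hydrolases (XTHs). Pectin is secreted with methyl groups that pectinesterases remove, a step blocked by inhibitor proteins, after which polygalacturonases and lyases can cut the chain. COBRA-like proteins are anchored at the cell surface and are known from Arabidopsis and rice to be needed for orderly cellulose deposition.

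RNA-seq had been carried out on roots at 2 weeks, with 1 library in each of 5 groups, all grown without stress. The groups were RCc3::OsNAC6 and GOS2::OsNAC6, labelled as carrying the transcription factor gene OsNAC6 behind the root promoter RCc3 or the promoter GOS2, active throughout the plant, each set against nontransgenic plants, NT (Nipponbare), of the same cultivar. The fourth group was nac6, described as a mutant with a T-DNA insertion in OsNAC6, set against NT (Hwayoung), nontransgenic plants of its own cultivar. Which of several independent transgenic lines was sequenced, and how many plants were pooled, was not given in the sources used here. With 1 library per group the differences below have no replicate check, and a difference between genotypes cannot be told apart from a difference between 2 root samples.

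The libraries held between 22909538 and 26838552 reads, recovered from the deposited means, and reads were found for 38087 to 39010 transcripts in each. OsNAC6 itself (Os01t0884300-01, chromosome 1) did not follow the labels, with 6050 reads in the library labelled RCc3::OsNAC6, 6675 in GOS2::OsNAC6 and 6215 in NT (Nipponbare), and with 8215 in the library labelled nac6 against 7600 in NT (Hwayoung). Its log2 ratios were -0.02 ± 0.03, 0.37 ± 0.03 and 0.31 ± 0.03 (here and below, ± is 1 standard error from counting reads only). The names RCc3::OsNAC6, GOS2::OsNAC6 and nac6 therefore stand below for the libraries so labelled, and each direction given for them rests on those labels. The root marker RCc3 (Os02t0662000-01) had 4166 to 27554 reads per library. Against the controls its log2 ratios were 0.56 ± 0.02 in RCc3::OsNAC6, 0.95 ± 0.02 in GOS2::OsNAC6 and -0.03 ± 0.04 in nac6. A list of 62 photosynthesis transcripts, taken as shoot markers, summed to 658 normalized counts in RCc3::OsNAC6 against 993 in NT (Nipponbare). Of its 22 members that passed the count minimum given below, 8 were at least 2-fold lower (median -0.76), beside 6.03% of all transcripts. The list summed to 977 in GOS2::OsNAC6 against 912 in NT (Nipponbare), and to 898 in nac6 against 875 in NT (Hwayoung).

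Each comparison was made within 1 deposited table, on normalized counts, which are read counts divided by a size factor of the table. The measure was log2((tested + 1)/(control + 1)), which understates differences of transcripts with few reads, for transcripts whose pair averaged at least 10 normalized counts. A transcript is called higher or lower when the ratio reached 2-fold, which is a log2 ratio of 1 or -1. Of the 196 transcripts, 133 passed the minimum in all 3 comparisons, 168 in at least 1 and 28 in none. A transcript that passed through only 1 library of a pair had to differ, so counts over those that passed describe them and not the whole set. The set holds 46 transcripts of 20 loci with several isoforms, which can share reads. The RCc3::OsNAC6 and GOS2::OsNAC6 comparisons use the same NT (Nipponbare) library and are therefore not independent of each other.

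In the library labelled RCc3::OsNAC6 the wall transcripts lay on the higher side more often than transcripts in general, with moderate differences. Of 163 that passed the minimum, 14 (8.59%) were at least 2-fold higher and 10 (6.13%) at least 2-fold lower than in NT (Nipponbare). Among all 32487 transcripts tested the shares were 4.47% and 6.03%, or 10.5% in either direction, so that the lower share of the wall transcripts was close to the background. The number higher was 9 with a pseudocount of 5, and 6 of 119 that passed a minimum of 50 normalized counts. Shares of all transcripts under these 2 settings are not given here. The median log2 ratio of the wall transcripts was 0.38, with 75.5% above 0, against a median of 0.01 and 50.4% above 0 among all transcripts. The shoot markers were lower in this library too, as given above, with 6 of 62 at 0 in RCc3::OsNAC6 against 2 in NT (Nipponbare), and their part in the result was not tested. The range ran from -1.89 for the cellulose synthase-like A5 transcript to 3.70 for a polygalacturonase.

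In the library labelled GOS2::OsNAC6 fewer transcripts reached 2-fold. Of 156 that passed, 8 (5.13%) were higher and 3 (1.92%) lower than in NT (Nipponbare), beside 1.83% and 2.00%, or 3.84% in either direction, of 31987 transcripts in all. With scaling by library totals 5 were higher and 4 lower, beside 1.33% and 2.71% of all transcripts, and with a pseudocount of 5 the number higher was 5. The median was 0.26 with 76.9% above 0, against -0.01 and 49.0% for all transcripts. Under library totals the median of all transcripts in this comparison dropped by 0.0999, and that of the wall transcripts was 0.16.

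In the library labelled nac6 the wall transcripts were centred with the rest but spread more widely. Of 138 that passed, 9 (6.52%) were higher and 8 (5.80%) lower than in NT (Hwayoung), beside 6.30% and 3.65%, or 9.95% in either direction, of 30767 transcripts in all. Under library totals 6 were higher and 12 lower, beside 4.70% and 5.46% of all transcripts. The median was -0.02, against -0.01 for all transcripts, and the interquartile range was 0.858 wide against 0.673. Scaled by library totals, the median of all transcripts dropped by 0.153 and that of the wall transcripts was -0.17, so the centre of both moved together. Between the pair of count columns that lie behind each deposited mean, 3 or 4 wall transcripts of 137 to 165 differed 2-fold, and 1.76% to 2.34% of all transcripts did so. What those 2 columns are is not stated in the sources used here, and the reads, standard errors and read test given below treat them as repeat counts of 1 library.

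**Figure D1:**
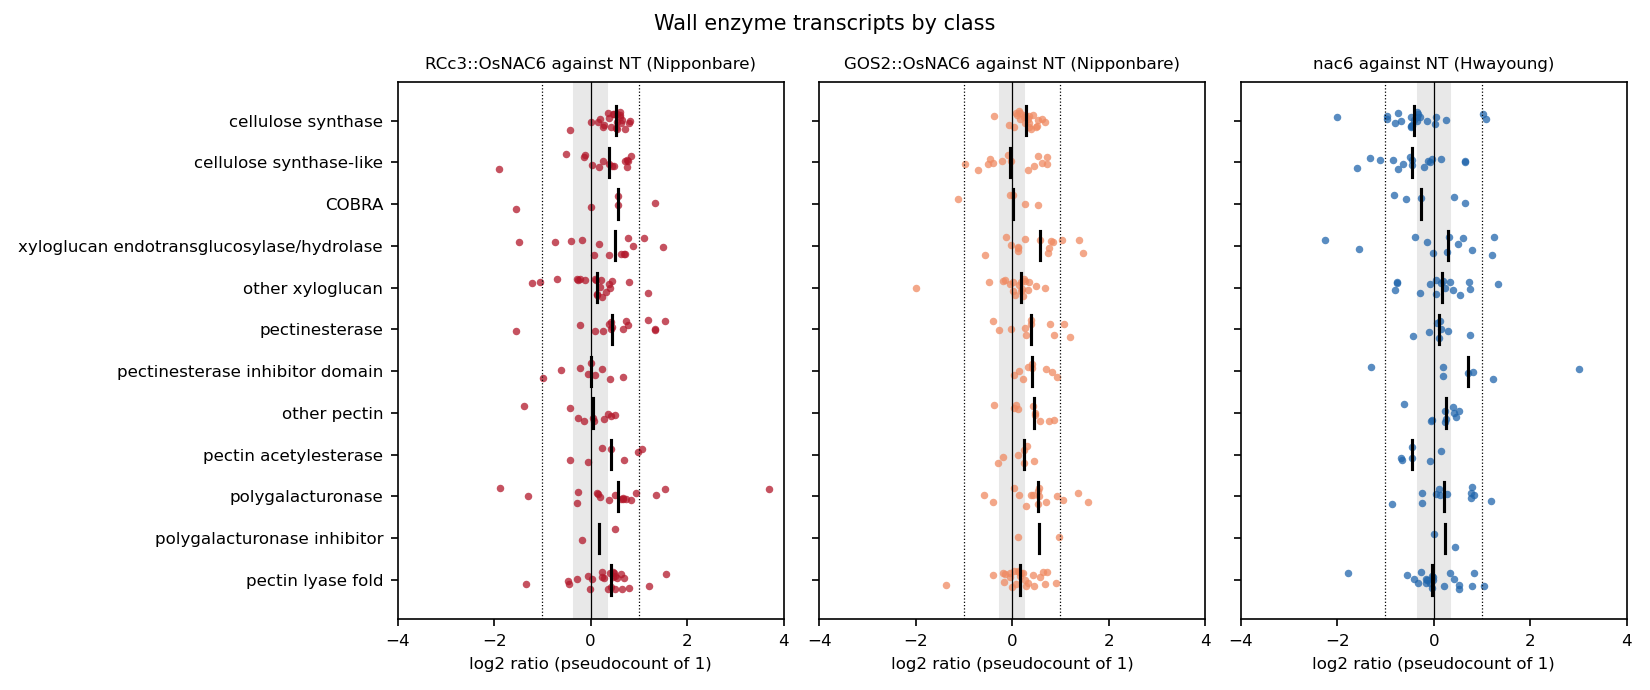
Log2 ratios (horizontal axis, pseudocount of 1) of the wall transcripts that passed the count minimum, by class, in RCc3::OsNAC6 and GOS2::OsNAC6 against NT (Nipponbare) and in nac6 against NT (Hwayoung). Each point is 1 transcript, the black bar is the class median, the grey band is the interquartile range of all transcripts and the dotted lines mark 2-fold. The cellulose synthase class sits mostly right of 0 in the RCc3::OsNAC6 and GOS2::OsNAC6 panels, with medians of 0.52 and 0.29. In nac6 it sits mostly left of 0, with a median of -0.42.

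Most transcripts classed as cellulose synthases lay on one side of 0 in each comparison. The class was set by words of the function text. It also holds transcripts annotated only as cellulose synthase family, such as Os08t0160500-01 and Os09t0478100-01, whose other isoforms are annotated cellulose synthase-like CslF6 and E1. All 3 comparisons tested the same number of the class, 23 of 24 transcripts. In RCc3::OsNAC6 22 of 23 had a ratio above 0 (median 0.52) and in GOS2::OsNAC6 21 of 23 (median 0.29), with none at 2-fold in either. In nac6 18 of 23 lay below 0 (median -0.42). There 1 was at least 2-fold lower and 2 were at least 2-fold higher, beside 3.65% and 6.30% of all transcripts. With isoforms summed, 14 of 15 loci lay above 0 in RCc3::OsNAC6, 13 of 15 in GOS2::OsNAC6, and 11 of 15 below 0 in nac6. Under library totals the counts were 22 of 23 above 0, 18 of 23 above 0 and 20 of 23 below 0, in the same order of comparisons.

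The transcript with the most reads, Os07t0208500-01 (chromosome 7, similar to cellulose synthase-4), had 10896 normalized counts in RCc3::OsNAC6 against 7067 in NT (Nipponbare), a log2 ratio of 0.62 ± 0.02. It had 7789.9 in GOS2::OsNAC6 against 6486 in NT (Nipponbare), whose counts differ between the tables only by scaling, a log2 ratio of 0.26 ± 0.02. In nac6 it had 4448 against 5943 in NT (Hwayoung), a log2 ratio of -0.42 ± 0.03. An RSW1-like catalytic subunit, Os05t0176100-05 (chromosome 5), named for an Arabidopsis subunit of the primary wall enzyme, followed with 9822 in RCc3::OsNAC6 against 6468 in NT (Nipponbare) and log2 ratios of 0.60 ± 0.02, 0.25 ± 0.02 and -0.45 ± 0.03 in RCc3::OsNAC6, GOS2::OsNAC6 and nac6. These differences were many times their counting error and well under 2-fold.

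Of the 4 transcripts described as similar to a cellulose synthase fragment, 3 are given here, and Os07t0551700-01 after them. Os10t0467800-01 (chromosome 10) had 2065 normalized counts in RCc3::OsNAC6 against 1164 in NT (Nipponbare) (0.83 ± 0.05), 1523 in GOS2::OsNAC6 against 1069 in NT (Nipponbare) (0.51 ± 0.05) and 259 in nac6 against 435 in NT (Hwayoung) (-0.75 ± 0.11). Os01t0750300-01 (chromosome 1) had 2685 in RCc3::OsNAC6 against 1701 in NT (Nipponbare) (0.66 ± 0.04), 1988 in GOS2::OsNAC6 against 1561 in NT (Nipponbare) (0.35 ± 0.05) and 355 in nac6 against 699 in NT (Hwayoung) (-0.97 ± 0.09). Os09t0422500-01 (chromosome 9) gave 0.55 ± 0.04, 0.49 ± 0.04 and -0.80 ± 0.09 in RCc3::OsNAC6, GOS2::OsNAC6 and nac6. All 3 were thus above their control in RCc3::OsNAC6 and GOS2::OsNAC6 and below it in nac6, and Os01t0750300-01 reached -1.13 in nac6 under library totals. They were chosen for mention after their values had been seen.

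The transcripts of the cellulose synthase class that reached 2-fold in nac6 had far fewer reads than these. Os07t0551700-01 (chromosome 7) had 8 reads in nac6 against 43 in NT (Hwayoung), a log2 ratio of -2.00 ± 0.62. It neighbours Os07t0551600-01, which is annotated as similar to cellulose synthase-like CslF9. Os10t0343400-01 (chromosome 10), a cellulose synthase family transcript, had 128 normalized counts in nac6 against 60.3 in NT (Hwayoung) (1.07 ± 0.21, and 0.92 under library totals). Os07t0552800-01 (chromosome 7) had 103 in nac6 against 50.1 in NT (Hwayoung) (1.02 ± 0.23, and 0.86 under library totals), and its other isoform is annotated as a mixed-linked glucan synthase with nearly the same counts, 104 against 50.2.

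**Figure D2:**
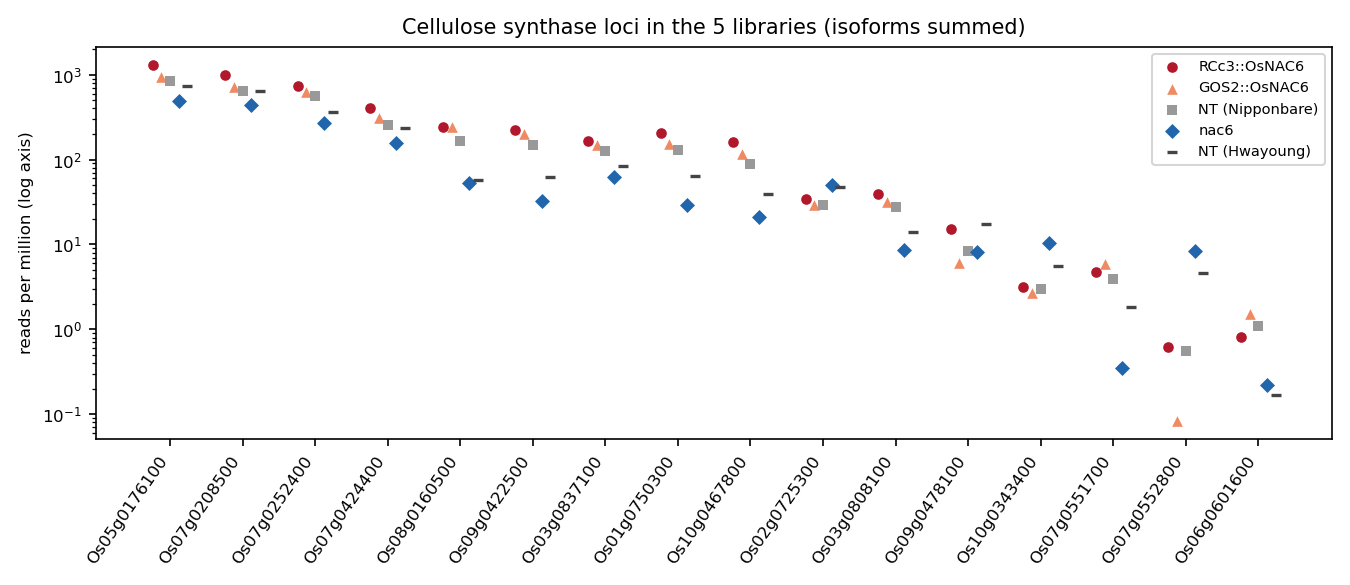
RPM (reads scaled by library total, log axis) of the 16 loci classed as cellulose synthase in the 5 libraries, isoforms summed, ordered by their mean. The RCc3::OsNAC6 circles lie above the NT (Nipponbare) squares for most loci, and the nac6 diamonds lie below the NT (Hwayoung) bars for most of the loci with many reads, Os07g0208500 among them.

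Cellulose synthase-like transcripts had a median below 0 in nac6, above 0 in RCc3::OsNAC6 and near 0 in GOS2::OsNAC6. In nac6 13 of 16 lay below 0 (median -0.46) and 3 were at least 2-fold lower, beside 3.65% of all transcripts. The medians were 0.38 over 15 transcripts in RCc3::OsNAC6 and -0.05 over 14 in GOS2::OsNAC6. The lowest ratio of any wall transcript in RCc3::OsNAC6 was that of Os03t0377700-01 (chromosome 3), cellulose synthase-like A5, of a family that makes mannans. It had 123 normalized counts in RCc3::OsNAC6 against 458 in NT (Nipponbare) (-1.89 ± 0.14), 304 in GOS2::OsNAC6 against 421 in NT (Nipponbare) (-0.47 ± 0.10) and 67.3 in nac6 against 77.4 in NT (Hwayoung) (-0.20 ± 0.22).

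The 3 that were lower in nac6 belong to the A and E groups. On chromosome 9, Os09t0478100-02, similar to cellulose synthase-like E1, had 150 reads in nac6 against 431 in NT (Hwayoung) (-1.32 ± 0.18). Its isoforms Os09t0478100-01, placed in the cellulose synthase class, and Os09t0478100-03 were within 2-fold in nac6 (-0.96 ± 0.17 and -0.73 ± 0.27). The neighbour Os09t0478300-01, similar to E6, had 99 reads in nac6 against 246 in NT (Hwayoung) (-1.10 ± 0.23). Os06t0230100-00 (chromosome 6), similar to A1, had 11 reads in nac6 against 42 in NT (Hwayoung) (-1.58 ± 0.57). The 2 with the most reads were Os02t0192500-01, with log2 ratios of 0.17 ± 0.05, -0.08 ± 0.05 and -0.45 ± 0.07 in RCc3::OsNAC6, GOS2::OsNAC6 and nac6, and Os05t0510800-01, similar to C1 of a family linked to the xyloglucan backbone, with 0.48 ± 0.05, 0.46 ± 0.06 and -0.49 ± 0.09.

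Of the 7 COBRA transcripts, 5 passed the minimum, and 2 of these reached 2-fold in opposite directions in RCc3::OsNAC6. Among all transcripts 10.5% reached 2-fold there in either direction. Os07t0604400-00 (chromosome 7), similar to COBRA-like 6, had 249 normalized counts in RCc3::OsNAC6 against 98.2 in NT (Nipponbare) (1.34 ± 0.16), and log2 ratios of 0.26 ± 0.19 in GOS2::OsNAC6 and -0.58 ± 0.30 in nac6. Os10t0497700-02 (chromosome 10), similar to COBRA-like 4, was lower in RCc3::OsNAC6 and GOS2::OsNAC6, with 93.7 in RCc3::OsNAC6 against 275 in NT (Nipponbare) (-1.54 ± 0.16) and 115 in GOS2::OsNAC6 against 252 in NT (Nipponbare) (-1.12 ± 0.15). It had 87.1 in nac6 against 64.7 in NT (Hwayoung) (0.42 ± 0.22). COBRA-like 4 is known in Arabidopsis from cells with secondary walls. The 2 transcripts with the most reads, both similar to COBRA-like 3, gave 0.57 ± 0.07, -0.05 ± 0.08 and -0.83 ± 0.12 (Os03t0754500-00) and 0.56 ± 0.08, 0.01 ± 0.09 and -0.27 ± 0.12 (Os05t0386800-03) in RCc3::OsNAC6, GOS2::OsNAC6 and nac6.

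The XTHs, which loosen or reinforce walls by cutting and rejoining xyloglucan, differed widely among themselves. In RCc3::OsNAC6 2 of 14 were higher and 1 lower (median 0.51), beside 4.47% and 6.03% of all transcripts. In GOS2::OsNAC6 3 of 15 were higher and none lower (median 0.57), beside 1.83% and 2.00% of all transcripts. In nac6 2 of 12 were higher and 2 lower (median 0.29), beside 6.30% and 3.65% of all transcripts. The transcript with the most reads was Os08t0237000-01 (chromosome 8), annotated OsXTH8. It had 5274 normalized counts in RCc3::OsNAC6 against 3226 in NT (Nipponbare) (0.71 ± 0.03), 4388 in GOS2::OsNAC6 against 2961 in NT (Nipponbare) (0.57 ± 0.03) and 1039 in nac6 against 837 in NT (Hwayoung) (0.31 ± 0.06). It was thus above its control in all 3 comparisons, by less than 2-fold.

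Os11t0539200-01 (chromosome 11), similar to the xyloglucan endotransglycosylase XET2, was higher in GOS2::OsNAC6 and in nac6. It had 1489 normalized counts in GOS2::OsNAC6 against 573 in NT (Nipponbare) (1.38 ± 0.07), 319 in nac6 against 133 in NT (Hwayoung) (1.26 ± 0.14), and 971 in RCc3::OsNAC6 against 624 in NT (Nipponbare) (0.64 ± 0.07). It was the 1 wall transcript of 133 tested in both comparisons that was higher in both, beside 0.199% of all transcripts. Os02t0280200-00 (chromosome 2), similar to XTH 26, was higher in RCc3::OsNAC6 and GOS2::OsNAC6, with 163 in RCc3::OsNAC6 against 57.3 in NT (Nipponbare) (1.49 ± 0.21) and 108 in GOS2::OsNAC6 against 52.6 in NT (Nipponbare) (1.03 ± 0.22, 0.93 under library totals and 0.98 with a pseudocount of 5). It had only 4 reads in nac6 and 10 in NT (Hwayoung).

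A run of 3 neighbouring XTH loci on chromosome 4 gave 3 different patterns. Os04t0604300-01, similar to XTH 24, had 43.9 normalized counts in RCc3::OsNAC6 against 124 in NT (Nipponbare) (-1.48 ± 0.24), 112 in GOS2::OsNAC6 against 114 in NT (Nipponbare) (-0.03 ± 0.18) and 52.1 in nac6 against 21.8 in NT (Hwayoung) (1.22 ± 0.33). Os04t0604900-01, an XTH fragment, had 159 in RCc3::OsNAC6 against 140.1 in NT (Nipponbare) (0.18 ± 0.16), 358 in GOS2::OsNAC6 against 129 in NT (Nipponbare) (1.47 ± 0.14) and 15 reads in nac6 against 54 in NT (Hwayoung) (-1.55 ± 0.51). Os04t0604200-01 stayed within 2-fold, at 0.70 ± 0.29, 0.12 ± 0.32 and -0.02 ± 0.42 in RCc3::OsNAC6, GOS2::OsNAC6 and nac6. Os04t0604300-01 was the 1 wall transcript of 134 that was lower in RCc3::OsNAC6 and higher in nac6 (1.03% of all transcripts were), and Os04t0604900-01 the 1 of 133 that was higher in GOS2::OsNAC6 and lower in nac6 (0.138% of all transcripts were).

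On chromosome 6, the XTH isoform Os06t0697000-02 had 8 reads in nac6 against 52 in NT (Hwayoung), the lowest ratio of any wall transcript there (-2.25 ± 0.60). Its neighbour Os06t0696600-01 was within 2-fold in each comparison but below 0 in the libraries labelled as carrying a construct (-0.74 ± 0.08 and -0.57 ± 0.08 in RCc3::OsNAC6 and GOS2::OsNAC6) and above 0 in nac6 (0.80 ± 0.11). Os02t0696500-02 (chromosome 2), similar to XTH 30, had 40.5 normalized counts in RCc3::OsNAC6 against 18.2 in NT (Nipponbare) (1.11 ± 0.37).

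The remaining xyloglucan transcripts, mostly glycosyltransferases that add fucose, galactose or xylose in the Golgi, stayed close to their controls, with medians of 0.13 over 20, 0.18 over 19 and 0.18 over 16 transcripts in RCc3::OsNAC6, GOS2::OsNAC6 and nac6. The 2 with the most reads were a fucosyltransferase, Os02t0763200-01 (0.12 ± 0.05, 0.50 ± 0.04 and 0.23 ± 0.05), and a KATAMARI 1-like galactosyltransferase, Os03t0144800-01 (-0.28 ± 0.06, 0.25 ± 0.05 and 0.04 ± 0.06). Fucosyltransferases gave the ratios that reached 2-fold in RCc3::OsNAC6. Os02t0763800-01 had 51.4 normalized counts in RCc3::OsNAC6 against 119.9 in NT (Nipponbare) (-1.21 ± 0.22), Os08t0334900-01 had 71.6 against 149 (-1.04 ± 0.19), and Os06t0212600-00 had 36 reads against 15 (1.19 ± 0.54). In nac6 the galactosyltransferase Os03t0144500-01 (chromosome 3) had 43.5 normalized counts against 16.5 in NT (Hwayoung) (1.34 ± 0.37).

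Pectinesterases strip methyl groups from pectin. Of those so annotated, 4 of 15 were higher and 1 lower in RCc3::OsNAC6 (median 0.44), beside 4.47% and 6.03% of all transcripts. In GOS2::OsNAC6 2 of 11 were higher (median 0.39), beside 1.83% of all transcripts. In nac6 none of 8 reached 2-fold (median 0.12), beside 9.95% of all transcripts in either direction. Transcripts annotated pectin methylesterase, another name for this enzyme, were classed with the remaining pectin transcripts. Those that passed in RCc3::OsNAC6 were Os01t0311800-01, lower and given below, Os01t0880300-02 (0.07), Os04t0438400-01 (-0.14), Os06t0193200-01 (0.52) and Os07t0675100-01 (0.04). Os01t0788400-01 (chromosome 1) had 145 normalized counts in RCc3::OsNAC6 against 49.5 in NT (Nipponbare) (1.53 ± 0.22), 60.1 in GOS2::OsNAC6 against 45.5 in NT (Nipponbare) (0.39 ± 0.26) and 3954 in nac6 against 2340.2 in NT (Hwayoung) (0.76 ± 0.04). It had the most reads of the class, followed by Os07t0119400-01. The latter stayed within 2-fold, at 0.43, 0.29 and 0.07 in RCc3::OsNAC6, GOS2::OsNAC6 and nac6. Os11t0172100-00 (chromosome 11) had 91.4 in GOS2::OsNAC6 against 42.7 in NT (Nipponbare) (1.08 ± 0.24, and 0.98 under library totals) and 40.1 in RCc3::OsNAC6 against 46.5 in NT (Nipponbare) (-0.21 ± 0.29). It had no read in nac6, which allows up to 3, and 28 in NT (Hwayoung), under the count minimum of that comparison.

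The other pectinesterases that were higher had fewer reads. Os01t0254300-00 was higher in RCc3::OsNAC6 and GOS2::OsNAC6, on 38 reads in RCc3::OsNAC6 and 29 in GOS2::OsNAC6 against 14 in NT (Nipponbare) (1.33 ± 0.54 and 1.20 ± 0.56), and its GOS2::OsNAC6 ratio was 0.88 with a pseudocount of 5. Os04t0553650-00 had 33 reads in RCc3::OsNAC6 against 12 in NT (Nipponbare) (1.34 ± 0.57) and Os01t0743200-02 had 36 against 15 (1.19 ± 0.53). In the other direction, both isoforms of Os01g0311800 (chromosome 1) were lower in RCc3::OsNAC6. The one similar to pectin methylesterase 8, Os01t0311800-01, had 83 normalized counts in RCc3::OsNAC6 against 218 in NT (Nipponbare) (-1.38 ± 0.17), and Os01t0311800-02 had 21.1 against 63.5 (-1.54 ± 0.33). Their log2 ratios were 0.12 ± 0.13 and 0.26 ± 0.24 in GOS2::OsNAC6, and 0.40 ± 0.05 and 0.31 ± 0.10 in nac6.

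Transcripts with a pectinesterase inhibitor domain, the counterpart of these enzymes, had few reads, and 10 of 19 did not pass the minimum in RCc3::OsNAC6. The 9 that passed had a median of 0.00 in RCc3::OsNAC6 and 0.40 in GOS2::OsNAC6, where all 9 lay above 0 (8 of 9 under library totals) and none reached 2-fold. In nac6 2 of 7 were higher and 1 lower (median 0.71), beside 6.30% and 3.65% of all transcripts. Os10t0186200-00 (chromosome 10) had 41 reads in nac6 against 4 in NT (Hwayoung) (3.01 ± 0.69), the highest ratio of a wall transcript there. Os12t0283400-01 (chromosome 12) had 131 normalized counts in nac6 against 55.9 in NT (Hwayoung) (1.22 ± 0.21). Os10t0508700-01 (chromosome 10) had 28.1 in nac6 against 70.3 in NT (Hwayoung) (-1.29 ± 0.30) and 217 in GOS2::OsNAC6 against 121 in NT (Nipponbare) (0.84 ± 0.15). The transcript of this class with the most reads, Os06t0711800-01, stayed within 2-fold. Its log2 ratios were 0.00, 0.40 and 0.20 in RCc3::OsNAC6, GOS2::OsNAC6 and nac6.

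Polygalacturonases cut demethylated pectin, and 1 of them gave the highest ratio of all wall transcripts. Os05t0578600-01 (chromosome 5), similar to polygalacturonase PG2, had 322 reads in RCc3::OsNAC6 against 23 in NT (Nipponbare), a log2 ratio of 3.70 ± 0.38. It had 42 reads in GOS2::OsNAC6 (1.06 ± 0.46, 0.96 under library totals and 0.85 with a pseudocount of 5), and 12 in nac6 against 13 in NT (Hwayoung). Over the class, 3 of 18 were higher and 2 lower in RCc3::OsNAC6 (median 0.56), beside 4.47% and 6.03% of all transcripts. In GOS2::OsNAC6 3 of 16 were higher and none lower (median 0.53), beside 1.83% and 2.00% of all transcripts. In nac6 1 of 12 was higher (median 0.21), beside 6.30% of all transcripts. With isoforms summed, 2 of 13 loci were higher in GOS2::OsNAC6, among them Os08g0380100, annotated as a beta subunit.

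Others of the class that were higher in RCc3::OsNAC6 were Os09t0487600-01 (chromosome 9), with 197 normalized counts against 76.6 in NT (Nipponbare) (1.35 ± 0.18), and Os07t0208100-01, with 41 reads against 13 (1.54 ± 0.54). The pair that was lower were Os01t0296200-00 (chromosome 1), with 86.1 normalized counts in RCc3::OsNAC6 against 320.2 in NT (Nipponbare) (-1.88 ± 0.16), and Os05t0279900-00, with 16.1 against 41.1 (-1.30 ± 0.38). Os01t0296200-00 had 221 in GOS2::OsNAC6 against 294 in NT (Nipponbare) (-0.41 ± 0.12) and 826 in nac6 against 486 in NT (Hwayoung) (0.76 ± 0.08). It had the most reads of the class, followed by Os01t0618900-01. The latter stayed within 2-fold, at 0.15, 0.56 and 0.04 in RCc3::OsNAC6, GOS2::OsNAC6 and nac6. In GOS2::OsNAC6 the isoforms of Os08g0380100 (chromosome 8), similar to the beta subunit of polygalacturonase isoenzyme 1, were both higher, with 160.0 against 53 in NT (Nipponbare) for the second isoform (1.58 ± 0.21) and 177 against 68.4 for the first (1.36 ± 0.19). In nac6 Os01t0891100-00 had 108 against 46.9 in NT (Hwayoung) (1.19 ± 0.23). The polygalacturonase inhibitor Os07t0568700-02 (chromosome 7), of a protein family that blocks pectin-cutting enzymes of pathogens, had 2372 in GOS2::OsNAC6 against 1202 in NT (Nipponbare), just under 2-fold (0.98 ± 0.05), with 0.50 ± 0.05 in RCc3::OsNAC6 and 0.02 ± 0.09 in nac6. The other transcript of the inhibitor class, Os05t0104200-00, gave -0.17, 0.12 and 0.44 in RCc3::OsNAC6, GOS2::OsNAC6 and nac6.

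Transcripts annotated only by a pectin lyase fold, a shape shared by polygalacturonases, lyases and pectinesterases, had medians of 0.43 over 25 in RCc3::OsNAC6, 0.16 over 25 in GOS2::OsNAC6 and -0.03 over 21 in nac6. Os04t0553500-01 (chromosome 4) had 76.8 normalized counts in RCc3::OsNAC6 against 25.1 in NT (Nipponbare) (1.57 ± 0.30). It neighbours the pectinesterase Os04t0553650-00, which was also higher in RCc3::OsNAC6. Os05t0521600-01 had 69.2 in RCc3::OsNAC6 against 29.5 in NT (Nipponbare) (1.20 ± 0.29). Os07t0607400-01 (chromosome 7) was lower in RCc3::OsNAC6 and GOS2::OsNAC6, with 23 reads in RCc3::OsNAC6 and 19 in GOS2::OsNAC6 against 63 in NT (Nipponbare) (-1.35 ± 0.44 and -1.38 ± 0.47), and had 317 reads in nac6 against 250 in NT (Hwayoung) (0.53 ± 0.16). In nac6 Os03t0124900-01 (chromosome 3) had 25.6 normalized counts against 89.5 in NT (Hwayoung) (-1.77 ± 0.30). It had 261 in GOS2::OsNAC6 against 139 in NT (Nipponbare) (0.90 ± 0.14). Os05t0542800-01 (chromosome 5) had 328 in nac6 against 159 in NT (Hwayoung) (1.04 ± 0.13, and 0.88 under library totals). Its isoforms Os05t0542800-02 and Os05t0542800-03, classed as polygalacturonases, were within 2-fold in nac6 (0.84 and 0.78). The 2 pectin lyase fold transcripts with the most reads stayed within 2-fold in RCc3::OsNAC6, GOS2::OsNAC6 and nac6. Their log2 ratios were, in that order, -0.01, -0.05 and 0.34 for Os09t0439400-01, and 0.40, -0.16 and -0.01 for Os05t0213900-01.

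Pectin acetylesterases, which remove acetyl groups, shared the direction of the cellulose synthases on few members, with medians of 0.42 over 7 in RCc3::OsNAC6, 0.24 over 7 in GOS2::OsNAC6 and -0.44 over 6 in nac6. Os07t0634600-01 (chromosome 7) had 1202 normalized counts in RCc3::OsNAC6 against 739 in NT (Nipponbare) (0.70 ± 0.06), 804 in GOS2::OsNAC6 against 678 in NT (Nipponbare) (0.25 ± 0.07) and 228 in nac6 against 361 in NT (Hwayoung) (-0.66 ± 0.12). Os04t0602500-01 was higher in RCc3::OsNAC6, with 49.3 against 23.1 in NT (Nipponbare) (1.06 ± 0.33), and Os01t0974500-01 was just under 2-fold (0.98 ± 0.16, and 1.01 under library totals). Of 10 remaining pectin transcripts that passed, pectin methylesterases among them, the only one to reach 2-fold was Os01t0311800-01, given above with its isoform. The pectin-glucuronyltransferase Os01t0926600-01 had the most reads of them in RCc3::OsNAC6 and GOS2::OsNAC6 (0.36 ± 0.05, 0.47 ± 0.05 and -0.05 ± 0.07 in RCc3::OsNAC6, GOS2::OsNAC6 and nac6).

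**Figure D3:**
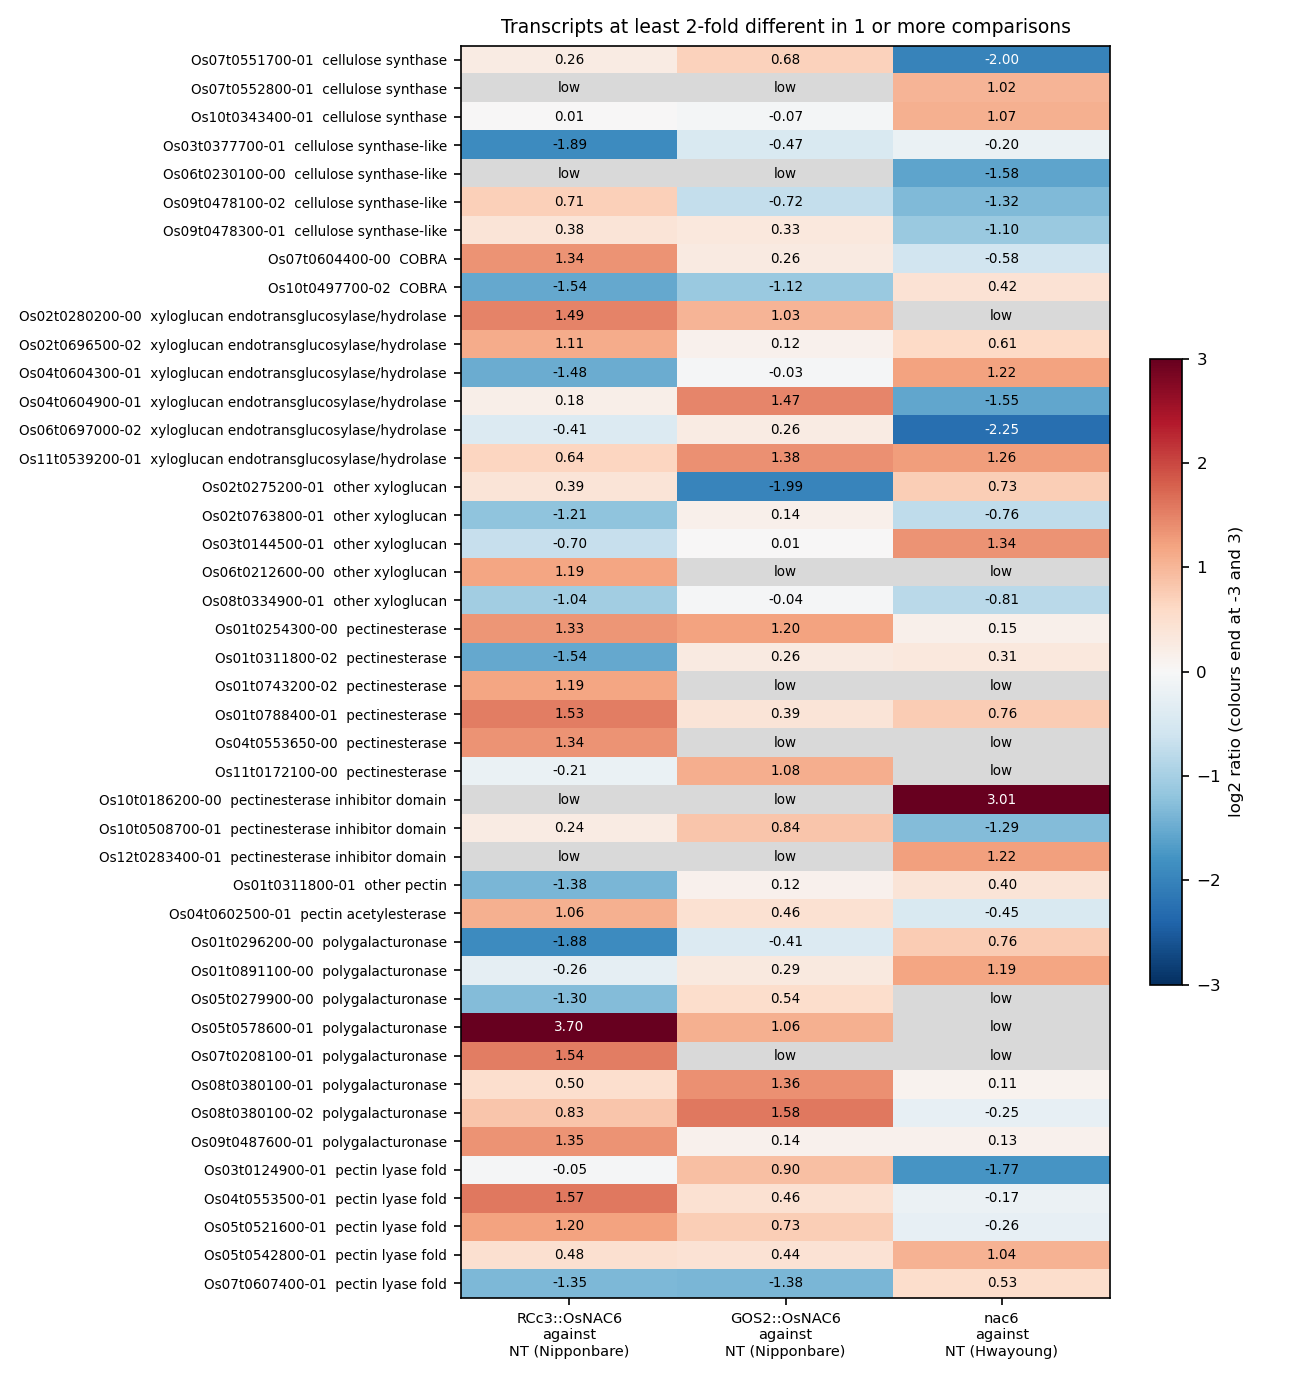
Log2 ratios of the 44 wall transcripts that were at least 2-fold higher (red) or lower (blue) in 1 or more comparisons, in rows by class, with the comparisons in columns and grey cells marked low where the pair averaged under 10 normalized counts. The reddest cell of RCc3::OsNAC6 is the polygalacturonase Os05t0578600-01 (3.70).

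Of the transcripts past 2-fold, an exact 2-sided binomial test of halved reads with Benjamini-Hochberg adjustment over the table gave an adjusted p under 0.05 for 20 of 24 in RCc3::OsNAC6, 9 of 11 in GOS2::OsNAC6 and 17 of 17 in nac6. Among all transcripts past 2-fold it did so for 3124 of 3411, 954 of 1227 and 2766 of 3061, in the same order of libraries. That test compares pairs of libraries and not genotypes.

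The level of several wall transcripts differed far more between the cultivars than between a genotype and its control. On RPM, which divides the recovered reads by the library total and sets a scale across separately normalized tables, 24 of 154 wall transcripts (15.6%) were at least 2-fold higher in NT (Hwayoung) than in NT (Nipponbare) and 41 (26.6%) at least 2-fold lower, beside 8.10% and 16.1% of 32080 transcripts in all. The median was -0.45, against -0.21 for all transcripts, and cultivar and library cannot be told apart here. The XTHs had the lowest class median, -1.19, with 9 of 14 at least 2-fold lower and 1 higher in NT (Hwayoung).

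The widest difference was that of the xyloglucan fucosyltransferase Os02t0275200-01 (chromosome 2). It had 3855 reads in nac6 and 2657 in NT (Hwayoung), and 59 in RCc3::OsNAC6, 8 in GOS2::OsNAC6 and 45 in NT (Nipponbare). Within the cultivars its log2 ratios were 0.73 ± 0.05 in nac6, 0.39 ± 0.37 in RCc3::OsNAC6 and -1.99 ± 0.62 in GOS2::OsNAC6, the lowest of any wall transcript there. The pectinesterase Os01t0788400-01 had 7433 reads in nac6 and 5039 in NT (Hwayoung), and 290 in RCc3::OsNAC6, 110 in GOS2::OsNAC6 and 100 in NT (Nipponbare). The opposite was seen for 1 pectin acetylesterase, Os01t0319000-01 (chromosome 1), which had 0 reads in nac6 and 2 in NT (Hwayoung), and 39 in RCc3::OsNAC6, 35 in GOS2::OsNAC6 and 33 in NT (Nipponbare). It was the only wall transcript with at least 20 reads in each library of one cultivar and 3 or fewer in each of the other, as 0.117% of all transcripts were in that direction.

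**Figure D4:**
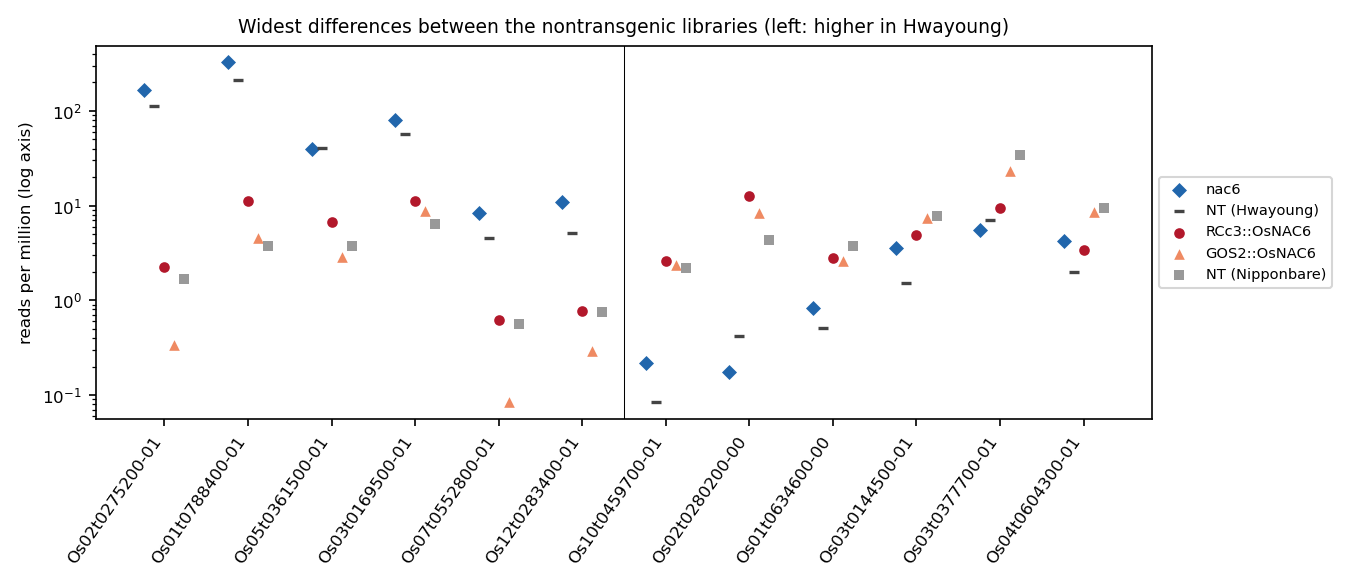
RPM (reads scaled by library total, log axis) in the 5 libraries for the 6 wall transcripts most above (left of the line) and the 6 most below (right) NT (Nipponbare) in NT (Hwayoung). Left of the line the nac6 and NT (Hwayoung) symbols sit together above the 3 Nipponbare libraries, as for Os02t0275200-01 with 168 and 113 against 2.28, 0.334 and 1.68 RPM.

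Other wall genes were listed by function text, and share no transcript with the set, though the list of callose and glucan synthases holds an isoform of 1 of its loci. Callose synthases make the beta-1,3-glucan of cell plates and plasmodesmata. The list of callose and glucan synthases had 5 of 12 at least 2-fold lower and 1 higher in nac6 (median -0.76). The shares of all transcripts were 3.65% and 6.30%. None of the list reached 2-fold in RCc3::OsNAC6 (median 0.22) or in GOS2::OsNAC6 (median -0.17). The 5 lower transcripts belong to 3 loci, and the 1 higher is Os07t0552800-02, described as similar to mixed-linked glucan synthase 2, whose isoform Os07t0552800-01 is in the cellulose synthase class. Enzymes of UDP-sugar supply had medians of 0.46, 0.29 and -0.03 in RCc3::OsNAC6, GOS2::OsNAC6 and nac6, and sucrose synthases, which can feed UDP-glucose to cellulose synthesis, 0.31, 0.42 and 0.53. Transcripts with endoglucanase or cellulase in their text had 2 of 24 higher and 2 lower in RCc3::OsNAC6 (median 0.18), beside 4.47% and 6.03% of all transcripts. They had 1 of 24 higher in GOS2::OsNAC6 (median 0.30), beside 1.83% of all transcripts. In nac6 they had 4 of 23 higher and 1 lower (median 0.07), beside 6.30% and 3.65% of all transcripts. Both lower in RCc3::OsNAC6, and 1 of those higher in nac6, are annotated only with a Barwin-related endoglucanase domain. The 1 lower in nac6, Os01t0940700-01, is annotated as a beta-1,3-endoglucanase. Pectate lyases had only 3 transcripts and none at 2-fold.

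Laccases, which polymerise lignin in vascular and other thickened walls, were measured as markers of those cells. They had 3 of 19 higher and 1 lower in RCc3::OsNAC6 (median 0.63), beside 4.47% and 6.03% of all transcripts. In GOS2::OsNAC6 3 of 19 were higher (median 0.27), beside 1.83% of all transcripts. In nac6 2 of 15 were lower (median -0.25), beside 3.65% of all transcripts. The summed level was 6602 normalized counts in RCc3::OsNAC6 against 5706 in NT (Nipponbare), 6802 in GOS2::OsNAC6 against 5237 in NT (Nipponbare) and 1479 in nac6 against 1932 in NT (Hwayoung), with 0 to 3 of the 23 transcripts at 0 in a library. The medians moved with those of the cellulose synthases in all 3 comparisons, and the part of tissue makeup in the result was not tested. Fewer cells of a type and less RNA per cell cannot be told apart in such root samples. Of 10 fasciclin and arabinogalactan transcripts, 1 was higher in RCc3::OsNAC6, the fasciclin-like Os01t0159200-01, with 671 normalized counts against 203 in NT (Nipponbare) (1.72 ± 0.11).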

How the data were processed

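The authors deposited 3 tables of DESeq output, 1 per comparison of libraries, whose rows are RAP-DB transcripts. The values used are the deposited mean normalized counts, a signal that the authors had scaled by size factors within each table. The submitters' processing notes name the genome build IRGSP-1.0, and the aligner, counter and treatment of reads shared by isoforms are not given in the sources used here. The tables also hold the authors' fold changes and p-values, which were not used. Table columns were assigned through the library numbers in the table names and sample descriptions.

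Each deposited mean was the mean of 2 count columns divided by their own size factors. What the 2 columns are is not stated in the sources used here, and they were treated as repeat counts of 1 library, on which the reads, standard errors and read test rest. Its digits could be split into whole reads for 100.0% of values above 0, in 99.929% to 100.0% in only 1 way (tolerance 6e-10 of the value), and 38925 of 38925 transcripts of NT (Nipponbare) gave the same reads from both tables. Standard errors come from these reads with a variance factor of 1.78, the largest mean chi-square found between the columns of a library. They cover only the error of counting. The splitting and read test were tested on simulated data. Ratios used a pseudocount of 1 and a minimum pair mean of 10. Computation used Python 3.11.15, pandas 2.3.3, NumPy 2.4.6 and SciPy 1.17.1.

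The set of transcripts, the classes and the other wall lists were chosen with earlier results of these data known. Transcripts named are the 5 highest and 5 lowest past 2-fold in each comparison, the 2 with the most reads in each class, and those past 2-fold in several comparisons. Others were named after their values were seen. Alternatives were pseudocounts of 5 and 0.5, no minimum or 50, library totals, isoforms summed to loci, 4-fold and the added read test. Identifiers of the tables could not be matched to the reference gene table, so the chromosome was read from the identifier and no coordinates or sequences are given.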

Additional observations from a re-analysis of the deposited data

How the results depend on the processing

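The counts of transcripts past 2-fold depended on the treatment of low counts, and the medians did so less. In RCc3::OsNAC6 the 14 of 163 higher became 9 with a pseudocount of 5. They became 22 of 196 with no minimum and 6 of 119 with a minimum of 50. In GOS2::OsNAC6 the 8 of 156 higher became 5 with a pseudocount of 5, 15 of 196 with no minimum and 5 under library totals. The 3 lower became 10 of 196 with no minimum and 1 of 115 with a minimum of 50. In nac6 the 9 of 138 higher became 14 of 196 with no minimum. The 8 lower became 19 of 196 with no minimum and 3 of 103 with a minimum of 50. Shares of all transcripts under another minimum or pseudocount are not given here. At 4-fold, RCc3::OsNAC6 had 1 higher and 0 lower, GOS2::OsNAC6 had 0 higher and 0 lower, and nac6 had 1 higher and 2 lower. The nac6 median of -0.02 became 0.052 with a minimum of 50 and -0.17 under library totals. The cause was not tested, apart from fewer or more transcripts being tested under another minimum. No paired analysis was possible because each group has 1 library, and for the same reason no library could be left out. Depth limits the transcripts with few reads, of which 28 passed the minimum in no comparison.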
